A study of Homo sapiens with 2 samples.

Results

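The genes described here encode the secreted Wnt ligands, their Frizzled receptors, the secreted antagonists of the SFRP and DKK families, the R-spondin (RSPO) ligands and the R-spondin receptors LGR4, LGR5 and LGR6. They were taken by gene symbol alone, and 43 of the 55797 genes in the expression tables carry such a symbol. These are 19 WNT genes, 10 FZD genes, 4 SFRP genes, 4 DKK genes, 3 RSPO genes and 3 LGR genes. RSPO3 was not analysed here. Both libraries came from the embryonic stem cell line H1, an established human line, differentiated to Stage 6, the last stage of a pancreatic protocol, at which part of the culture expresses insulin. The sources used here do not say whether both came from the same culture. The live library holds RNA extracted directly from unfixed, unsorted cells with the RNeasy kit. The processed library holds RNA from cells that were fixed in 4% PFA, permeabilized, stained with antibodies and then run on the sorter with the whole population kept (MARIS), with RNA isolated by a modified RecoverAll kit. The comparison asks whether this procedure changed the representation of transcripts, and with 1 library per condition no difference has a replicate check.

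Wnt ligands are lipid-modified glycoproteins that bind a Frizzled receptor together with LRP5 or LRP6. In the canonical branch this stops the destruction complex from marking beta-catenin for degradation, and beta-catenin then acts with TCF/LEF factors on target genes. SFRP proteins bind Wnt ligands outside the cell, whereas DKK1 binds LRP5 and LRP6. R-spondins act through LGR4, LGR5 and LGR6 to keep Frizzled receptors at the cell surface by countering the ubiquitin ligases RNF43 and ZNRF3. In the embryo the pathway patterns the gut tube, and it is used at several stages of pancreas development.

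Promoter sequence was examined as a property that the choice of genes did not use. RefSeq promoters on GRCh38.p14, which run from 250 bases before to 50 bases after an annotated start, were at hand for 29 of the 43 genes (34 promoters). Their median GC content was 66.7%, compared with 58.7% over all 35116 promoters. On either strand the GC box core GGGCGG was found in 24 of the 34 (70.6%, against 45.0% of all promoters), the TATA box core TATAAA in 3 (8.82%, against 11.5%) and the TCF/LEF core CTTTGA in 1 (2.94%, against 12.9%). Motifs were counted separately, a pair of GC box cores in FZD5 shares 1 base, and a match is only a description of the letters in this window. The promoters below belong to the most abundant gene of the set (FZD5), the ligand with the lowest log2 ratio (pseudocount of 1) among those above 0 in processed cells (WNT3) and the only one of the 29 genes with the TCF/LEF core (DKK1), with every match on either strand in capitals. They lie at chr2:207769857-207770156 (minus strand), chr17:46818643-46818942 (minus strand) and chr10:52314031-52314330 (plus strand). FZD5 has 6 GC box cores, WNT3 has 2, and DKK1 has 1 beside 2 TCF/LEF cores and 1 TATA box core.
FZD5: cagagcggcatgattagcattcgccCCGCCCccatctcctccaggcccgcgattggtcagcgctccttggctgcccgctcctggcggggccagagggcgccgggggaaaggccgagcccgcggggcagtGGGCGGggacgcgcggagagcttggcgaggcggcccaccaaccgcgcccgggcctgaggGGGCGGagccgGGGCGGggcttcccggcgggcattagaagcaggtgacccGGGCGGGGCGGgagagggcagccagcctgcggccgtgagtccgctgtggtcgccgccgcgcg
WNT3: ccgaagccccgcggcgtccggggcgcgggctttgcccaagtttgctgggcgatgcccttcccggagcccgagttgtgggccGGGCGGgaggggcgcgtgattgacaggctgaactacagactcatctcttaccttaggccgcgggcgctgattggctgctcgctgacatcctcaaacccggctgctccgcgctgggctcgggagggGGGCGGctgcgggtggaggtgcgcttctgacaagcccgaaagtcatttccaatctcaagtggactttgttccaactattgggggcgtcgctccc
DKK1: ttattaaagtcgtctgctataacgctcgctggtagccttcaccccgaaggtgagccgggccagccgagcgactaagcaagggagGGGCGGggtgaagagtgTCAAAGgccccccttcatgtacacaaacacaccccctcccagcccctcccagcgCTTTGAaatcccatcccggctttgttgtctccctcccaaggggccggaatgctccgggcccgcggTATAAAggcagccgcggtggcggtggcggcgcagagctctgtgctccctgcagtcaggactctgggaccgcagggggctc

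Expression was given by the authors as FPKM, a fragment count scaled by transcript length and by the size of the library, with a lower and an upper bound for each value. The scaling by length allows different genes to be ordered by level. The level of the bounds is not stated, and they describe the precision within 1 library. Over all genes, FPKM values summed to 510713 (live) and 499398 (processed), and read counts were not analysed here. The 43 Wnt genes together came to 509.8 FPKM live and 440.9 FPKM processed. All 43 had status OK in both libraries. Of these, 35 stood at 1 FPKM or more in the live library and 33 in the processed library, and 36 did so in one library or both, here called detected. At 10 FPKM or more there were 14 and 11. The culture is a mixture, in which all 5 pancreatic epithelial and all 6 endocrine markers examined were above 7 FPKM in both libraries (PDX1 66.5 and 72.1, INS 98.3 and 121), beside transcripts of neural (SOX2 52.4 and 47.1), liver (AFP 460 and 550), pluripotent (LIN28A 119 and 88.7, NANOG 1.27 and 7.34) and mesenchymal type. The endocrine marker CHGA was imprecise in processed cells, at 1741 FPKM with bounds from 0 to 4712. In bulk RNA of such a mixture, fewer cells of a type and less RNA per cell cannot be told apart.

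Wnt ligands and Frizzled receptors were mostly lower in processed cells, whereas the SFRP, DKK, RSPO and LGR genes went both ways. Of the 36 detected genes, 25 had separate bounds and were lower in processed cells, 4 had separate bounds and were higher, and for 7 the bounds overlapped. In what follows, a gene is said to have fallen or risen where its bounds were separate. Over all 17326 detected genes, 43.7% fell and 28.1% rose by the same rule, compared with 69.4% and 11.1% of the Wnt genes. Separate bounds are thus common in this pair of libraries and do not show a difference beyond that between repeated libraries of one condition. Changes were small. After adding a pseudocount of 1 to both values, none of the 36 was more than 2-fold higher, against a background of 6.57% of all genes. Of the 36, 1 was more than 2-fold lower, against 6.19%. Among protein-coding genes, the type of all 36, these shares were smaller, at 3.15% and 3.53%. With a pseudocount of 0.1, 2 were more than 2-fold higher (SFRP4 and RSPO2) and 3 lower (WNT3, WNT9A and WNT10A), which is 5.56% and 8.33%, against 9.90% and 10.1% of all genes. The median log2 ratio was -0.20, with quartiles of -0.52 and -0.08, compared with a median of -0.09 and quartiles of -0.39 and 0.25 over all genes. Among the 13573 protein-coding genes at this level, the median was -0.11 and 47.0% fell. Rescaling the processed library so that the median gene had a ratio of 1, which raises every log2 ratio without pseudocount by 0.10, moved the median of the Wnt genes to -0.10 and that of all genes to within 0.01 of 0, with 21 genes lower (58.3%, against 35.7% of all genes) and 7 higher (19.4%, against 34.8%) by separate bounds.

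**Figure D1:**
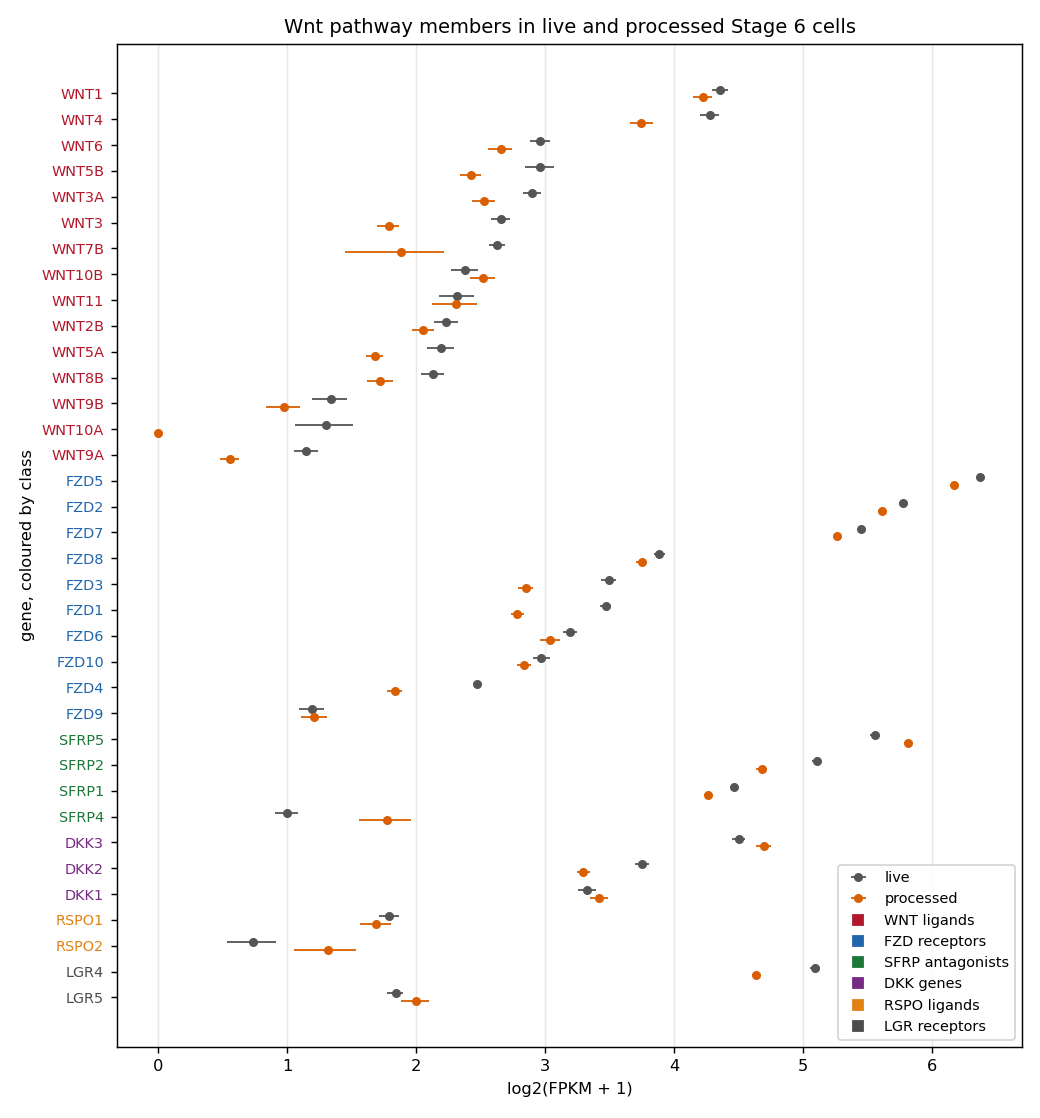
Level of the 36 detected Wnt genes, as log2(FPKM + 1), with 1 row per gene, grey points for the live and orange points for the processed library, and bars for the authors' lower and upper bounds (no replicates). FZD5 has the highest level in both libraries, at 81.6 and 70.8 FPKM, and WNT10A is the gene listed at 0 in processed cells.

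Of the 19 ligand genes 15 were detected, of which 12 fell (80%, against 43.7% of all detected genes), none rose and 3 had overlapping bounds. Without regard to bounds, 14 of the 15 were lower in processed cells (93.3%, against 58.3% of all detected genes). After either rescaling of the libraries 13 were, against 8683 (median ratio) and 9661 (sum) of all 17326 detected genes. By separate bounds 11 (73.3%) then remained lower, WNT1 not among them. The share over all genes was then 35.7% by the median ratio and 41.0% by the sum. Rescaling by the median ratio also left 1 ligand higher by separate bounds. Their median log2 ratio was -0.40, and their summed FPKM went from 92.3 to 68.6, a ratio of 0.744. WNT1, best known from the patterning of the midbrain, was the most abundant at 19.5 FPKM live (bounds 18.57 to 20.4) and 17.7 FPKM processed (16.7 to 18.56). Its bounds were only just separate, and its log2 ratio was -0.13. WNT4, a ligand of kidney and gonad development, fell from 18.4 (17.4 to 19.4) to 12.4 FPKM (11.6 to 13.3), with a log2 ratio of -0.53. These 2 genes stood well above the other ligands, none of which exceeded 7 FPKM.

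WNT3A, widely used to activate beta-catenin signalling in culture, was at 6.46 FPKM in live cells (6.09 to 6.82) and 4.76 in processed cells (4.39 to 5.13), and fell by 0.37 on the log2 scale. WNT3, required for the primitive streak in mice, was at 5.30 FPKM (4.97 to 5.64) and 2.45 FPKM (2.24 to 2.66). With a pseudocount of 1 its log2 ratio of -0.87 was the lowest among ligands above 0 in processed cells, whereas with pseudocounts of 0.1 and 0.01 that of WNT9A was lower (-1.21 and -1.36, against -1.08 and -1.11 for WNT3). The plain ratio of the WNT3 values was 0.462. WNT8B fell from 3.37 to 2.30 FPKM, a log2 ratio of -0.40. WNT10B had 4.20 FPKM in live cells (3.82 to 4.58) and 4.72 in processed cells (4.35 to 5.10), bounds that overlap. After rescaling by the median ratio its bounds were separate, and it was the only ligand higher by that rule.

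The ligands WNT5A, WNT5B and WNT11 are mainly known for signalling that does not use beta-catenin. WNT5A fell from 3.58 (3.25 to 3.91) to 2.203 FPKM (2.06 to 2.35), with a log2 ratio of -0.52, and WNT5B from 6.79 (6.17 to 7.41) to 4.37 FPKM (4.06 to 4.68), with a log2 ratio of -0.54. WNT11 had 4.00 and 3.96 FPKM with overlapping bounds, and its log2 ratio of -0.01 changed sign under both rescalings. It was the only one of the 36 genes that did so.

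Among the remaining ligands, WNT6 fell from 6.80 to 5.30 FPKM (log2 ratio -0.31) and WNT9B from 1.53 to 0.965 FPKM (-0.36). WNT9A fell from 1.22 (1.07 to 1.37) to 0.471 FPKM (0.394 to 0.547), with a log2 ratio of -0.59 and a plain ratio of 0.386. The bounds of WNT2B overlapped at 3.71 and 3.16 FPKM. WNT7B fell from 5.19 FPKM (4.93 to 5.45) to 2.68 FPKM, but its processed value was imprecise. The bounds there ran from 1.72 to 3.64, a half-width of 35.7% of the value compared with 5.001% in live cells. WNT10A was at 1.47 FPKM (1.09 to 1.85) in live cells and is listed at 0, with both bounds at 0, in processed cells. This is the gene counted as more than 2-fold lower, and no fold is given against a listed 0. WNT10A also counts among the genes that fell, since bounds at 0 are separate from any live lower bound above 0. Of the 13085 protein-coding genes that reached 1 FPKM in the live library, 39 (0.298%) were listed at 0 in processed cells, WNT10A among them.

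Several WNT genes lie within 100 kb of each other, in 4 pairs. On GRCh37, WNT3 (chromosome 17, 44839872 to 44910520, minus strand) and WNT9B (44910567 to 44964096, plus strand) are 46 bp apart and point away from each other, and both fell. WNT9A (chromosome 1, 228106357 to 228135631) and WNT3A (228194752 to 228248961) are 59.1 kb apart with 1 other gene between them, and both fell. WNT6 (chromosome 2, 219724544 to 219738955) and WNT10A (219745085 to 219764303) are 6.13 kb apart, with WNT6 reduced and WNT10A listed at 0 in processed cells. WNT10B (chromosome 12, 49359123 to 49365546) and WNT1 (49372398 to 49375459), 6.85 kb apart with 1 other gene between them, had log2 ratios of 0.14 and -0.13.

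All 10 Frizzled receptor genes were detected, 9 of them fell (90%, against 43.7% of all detected genes) and none rose. The 9 log2 ratios stayed below 0 after either rescaling. Of all 17326 detected genes, 58.3% were below 0 before rescaling. After rescaling by the median ratio and by the sum, 8683 and 9661 of them were. Rescaling by the median ratio left 6 falls by separate bounds (FZD1, FZD2, FZD3, FZD4, FZD5 and FZD7), or 60%, against 35.7% of all genes. It moved the log2 ratio of FZD2 to -0.06, of FZD5 to -0.10 and of FZD7 to -0.09. Rescaling to the same sum left 7 (70%, against 41.0%). Their summed FPKM went from 233 to 198, a ratio of 0.850, to which FZD5 gave 35.0% in live and 35.8% in processed cells. FZD5 (chromosome 2, 208627310 to 208634287), whose promoter is shown above, was at 81.6 FPKM in live cells (80.9 to 82.3) and 70.8 in processed cells (70.1 to 71.5), a log2 ratio of -0.20. FZD2, a gene of a single exon, followed with 53.6 FPKM (52.5 to 54.7) and 47.9 FPKM (46.8 to 48.9), a log2 ratio of -0.16. FZD7, used as a surface receptor in human pluripotent cells, had 42.6 FPKM (41.9 to 43.3) and 37.4 FPKM (36.7 to 38.04), a log2 ratio of -0.18. These 3 receptors had plain ratios from 0.868 to 0.892 and kept their order.

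Among the receptors of lower level, 3 changed more. FZD3, known from axon guidance, fell from 10.3 (9.81 to 10.7) to 6.21 FPKM (5.91 to 6.52), with a log2 ratio of -0.64. FZD1 fell from 10.1 (9.77 to 10.4) to 5.89 FPKM (5.65 to 6.14), with a log2 ratio of -0.68. FZD4, also the receptor of norrin in retinal vessels, fell from 4.56 (4.43 to 4.69) to 2.57 FPKM (2.43 to 2.72), with a log2 ratio of -0.64. FZD8 (13.8 and 12.4 FPKM), FZD6 (8.17 and 7.22 FPKM) and FZD10 (6.84 and 6.15 FPKM) fell with log2 ratios from -0.16 to -0.13. FZD9 had overlapping bounds at 1.28 and 1.32 FPKM. The interval spanned by the bounds of FZD1, from -0.78 to -0.59 on the log2 scale, did not meet that of FZD5, from -0.23 to -0.18.

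The secreted Frizzled-related genes went in both directions, 2 up and 2 down, and their summed FPKM was 101 live and 100.3 processed, a ratio of 0.990 that became 1.06 after rescaling by the median ratio. SFRP5 (chromosome 10, 99526508 to 99531709), an antagonist expressed in foregut endoderm of the embryo, rose from 46.0 (44.9 to 47.0) to 55.1 FPKM (53.9 to 56.3), with a log2 ratio of 0.26. SFRP2 fell from 33.4 (32.5 to 34.2) to 24.6 FPKM (23.9 to 25.4), with a log2 ratio of -0.42. SFRP1 fell from 21.0 (20.6 to 21.5) to 18.2 FPKM (17.7 to 18.7), with a log2 ratio of -0.20. The low gene SFRP4 rose from 1.002 (0.879 to 1.13) to 2.42 FPKM (1.95 to 2.89), with a log2 ratio of 0.77 and a plain ratio of 2.41. SFRP5 thus stood below FZD2 in live cells and above it in processed cells, with separate bounds in both libraries.

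The DKK genes summed to 43.4 FPKM in both libraries. DKK3, a divergent member of the family that is not known as a typical Wnt antagonist, rose from 21.6 (20.8 to 22.4) to 24.9 FPKM (23.8 to 25.9), with a log2 ratio of 0.19. DKK2 fell from 12.5 (12.0 to 13.0) to 8.83 FPKM (8.50 to 9.17), with a log2 ratio of -0.46. DKK1, an LRP5 and LRP6 antagonist that is itself a target of the pathway, had overlapping bounds at 9.02 FPKM (8.53 to 9.51) and 9.70 FPKM (9.18 to 10.2). After rescaling by the median ratio the bounds of DKK1 were separate, with the higher value in processed cells.

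R-spondin genes were low, and of their receptors LGR4 was abundant. LGR4 (chromosome 11, 27387508 to 27494322) fell from 33.1 (32.2 to 34.0) to 23.9 FPKM (23.3 to 24.4), with a log2 ratio of -0.46, and made up 91.3% of the summed FPKM of the 3 LGR genes in live cells. LGR5, a stem cell marker of the gut and a Wnt target, had overlapping bounds at 2.58 FPKM (2.43 to 2.74) and 2.99 FPKM (2.68 to 3.30). After either rescaling the bounds of LGR5 were separate, with the higher value in processed cells. RSPO1 also had overlapping bounds, at 2.46 and 2.23 FPKM. RSPO2 rose from 0.668 (0.451 to 0.886) to 1.49 FPKM (1.08 to 1.90), with a log2 ratio of 0.58 and a plain ratio of 2.23. Its bounds were wide, with a half-width of 32.6% of the value in live cells.

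**Figure D2:**
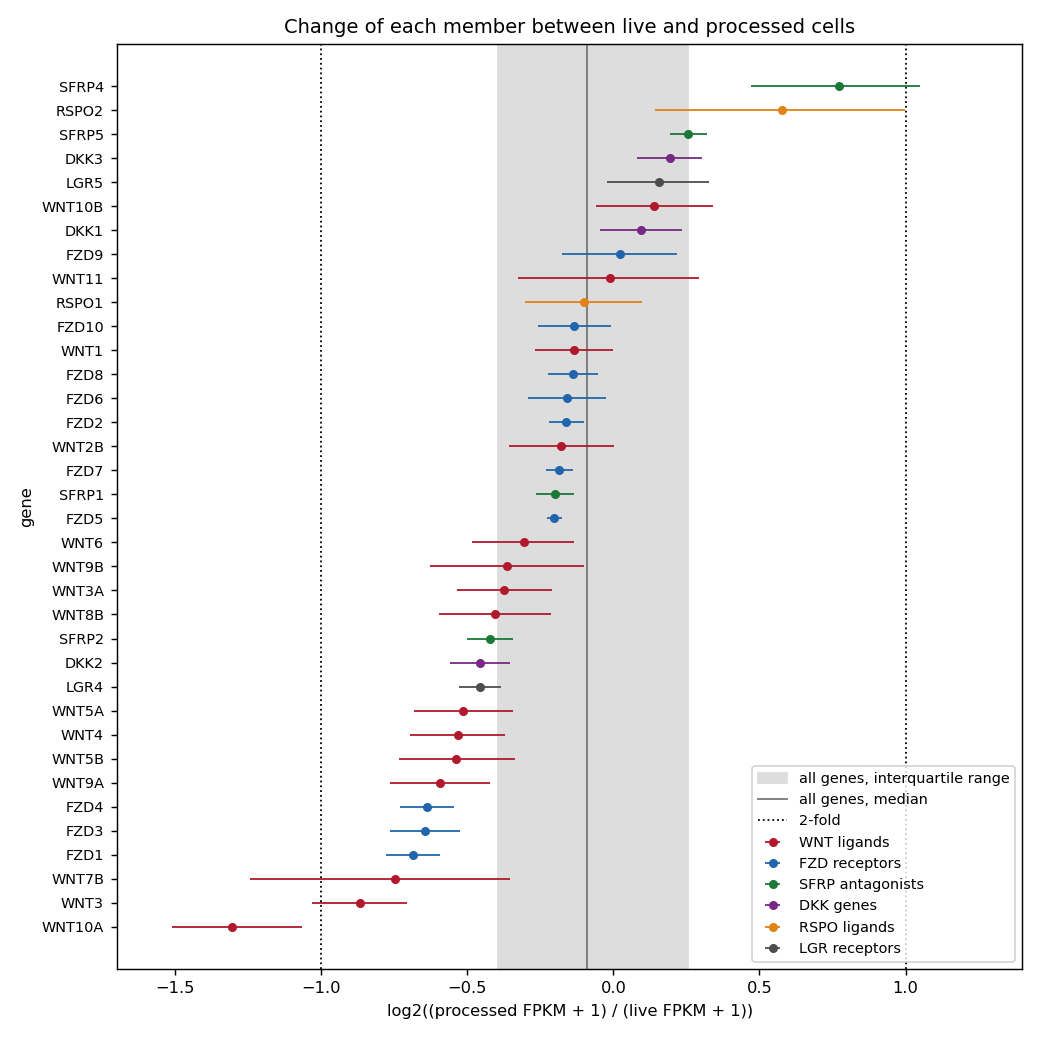
Log2 ratio of processed to live FPKM with a pseudocount of 1 for the same 36 genes, in order, coloured by class, with bars spanning the extremes that the authors' bounds allow. The grey band and line are the interquartile range and median of all 17326 detected genes. Of the 15 ligands 14 lie below 0 (93.3%), against 58.3% of all detected genes. After rescaling by the median ratio or the sum 13 do, against 8683 and 9661 of all 17326 genes. WNT10A, listed at 0 in processed cells, is placed by the pseudocount alone.

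The order of the genes was close to the same in both libraries. The Spearman correlation was 0.966 across the 36 genes, compared with 0.918 across all 17326 genes. All 36 are protein-coding, whereas the 17326 include other types, and no correlation was computed for protein-coding genes alone. Genes are not independent replicates, and the value is a description. FZD5 stood first in both. In live cells it was followed by FZD2, SFRP5, FZD7, SFRP2, LGR4, DKK3, SFRP1, WNT1 and WNT4, of which SFRP2 and LGR4, DKK3 and SFRP1, and WNT1 and WNT4 did not differ beyond their bounds. In processed cells the order after FZD5 was SFRP5, FZD2, FZD7, DKK3, SFRP2, LGR4, SFRP1, WNT1 and FZD8, of which DKK3 and SFRP2, SFRP2 and LGR4, and SFRP1 and WNT1 did not differ beyond their bounds. Over the whole order, 19 of 35 neighbouring pairs overlapped in live cells and 21 of 35 in processed cells. Live medians were 10.2 FPKM for the Frizzled, 27.2 FPKM for the SFRP and 4.20 FPKM for the 15 ligand genes, with wide overlap between the classes.

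The other 7 genes stayed below an FPKM of 1 in both libraries. LGR6 was at 0.569 FPKM (0.140 to 0.998) in live cells against 0.00473 FPKM after processing. RSPO4 was at 0.486 and 0.174 FPKM. WNT8A was at 0.264 and 0.663 FPKM. WNT16 (0.230 and 0.297 FPKM) and WNT7A (0.212 and 0.232 FPKM) had overlapping bounds. DKK4 (0.263 FPKM in live cells) and WNT2 (0.0365 FPKM) are listed at 0 in processed cells. At these levels the half-widths of the bounds in live cells ran from 22.2% to 75.4% of the value. None of the 43 genes is listed at 0 in live cells and 3 are in processed cells, where all genes together have 46.9% and 54.8% listed at 0.

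Transcript length moved with the change. Lengths are those of the longest transcript in GENCODE release 44 on GRCh37, a later release than the authors used. In the 5 Wnt genes under 2 kb the median log2 ratio was -0.01, in the 17 from 2 to 4 kb it was -0.16, in the 7 from 4 to 6 kb it was -0.20, and in the 7 of 6 kb or more it was -0.52. Protein-coding genes of the same lengths had medians of -0.01, -0.08, -0.14 and -0.20. Across the 36 Wnt genes the Spearman correlation of log2 ratio and length was -0.27, compared with -0.15 across 13573 protein-coding genes. All points come from the same pair of libraries, and genes are not independent. FZD3 (13.8 kb), FZD4 (7.39 kb) and FZD1 (6.89 kb) were long genes with low ratios. DKK3, at 9.55 kb, rose, and WNT3, at 3.41 kb, had a lower ratio than any of them. The part of length in these changes was not tested.

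**Figure D3:**
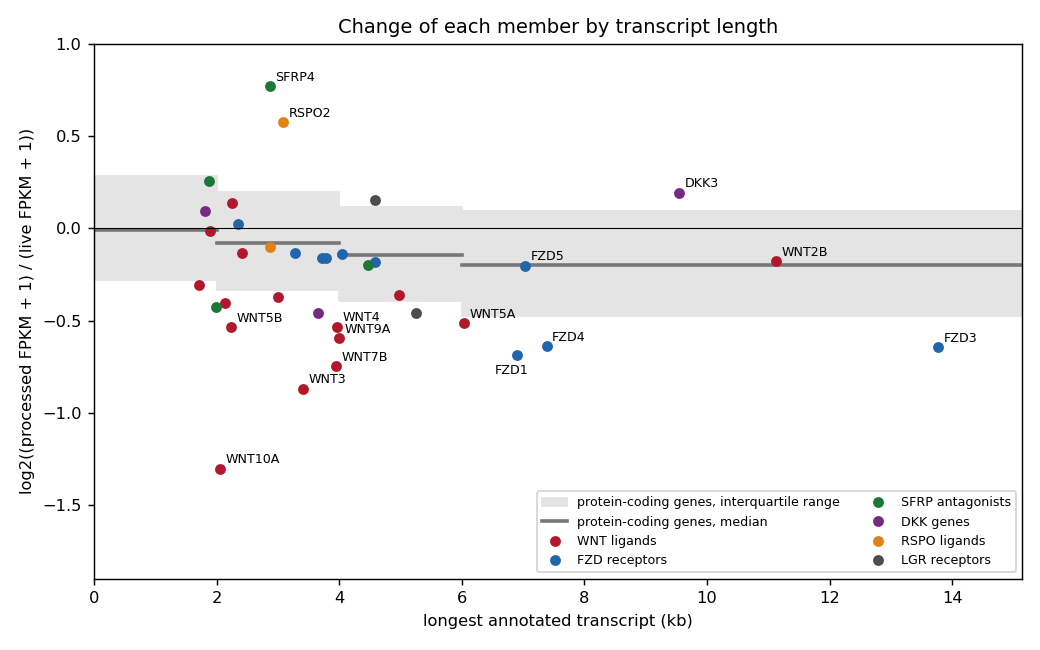
Log2 ratio of processed to live FPKM (pseudocount of 1) against the length of the longest annotated transcript in kb for the 36 Wnt genes, coloured by class. Grey bands and lines give the interquartile range and median of protein-coding genes under 2 kb, from 2 to 4 kb, from 4 to 6 kb and from 6 kb up, whose medians go from -0.01 to -0.20.

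Stroma is a common source of Wnt ligands and antagonists in tissues. Of 7 mesenchymal markers, 5 fell and 1 rose, where 43.7% and 28.1% of all genes did so, and their sum went from 80.6 to 65.5 FPKM. None is at 0. COL1A1 fell from 31.9 to 22.7 FPKM and PDGFRB from 4.26 to 1.17 FPKM, whereas DCN rose from 4.18 to 12.4 FPKM. Of the neural markers TUBB3, SOX2, NES and PAX6, 3 of 4 fell, with a sum of 261 and 231 FPKM. Of the liver and other endoderm markers AFP, ALB and CDX2, 2 of 3 rose and none fell. Of the pluripotent markers, LIN28A fell (119 and 88.7 FPKM), NANOG rose (1.27 and 7.34 FPKM) and POU5F1 had overlapping bounds (7.92 and 8.53 FPKM). Of 3 endothelial markers, KDR fell from 1.21 to 0.857 FPKM, and no gene carried the symbol PECAM1. CDH5, below 1 FPKM in both libraries, had overlapping bounds at 0.222 and 0.312 FPKM. The part of any of these cell types in the changes of the Wnt genes was not tested.

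The position of some genes may limit what their values mean. FZD4 shares 7166 bp on chromosome 11 with PRSS23 on the opposite strand, which was far more abundant and fell from 68.7 to 52.4 FPKM. WNT5B contains FBXL14 on the opposite strand (13.1 and 11.05 FPKM), SFRP4 overlaps EPDR1 by 46001 bp (2.71 and 3.92 FPKM), and FZD6 overlaps RP11-318M2.2 by 340 bp (2.32 and 0.586 FPKM). In each of these cases the overlapping gene changed in the same direction as the Wnt gene. Over all detected genes, 58.3% were lower without regard to bounds. A part of shared reads in these changes was not tested. These overlaps are between whole gene loci, introns included, and how much of each lies in exons was not examined. Whether strand was used in quantification is not stated. Without it, reads from a stretch that is exon in both genes cannot be told apart.

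Other genes of the pathway were followed in 6 lists with 53 genes, of which 50 were detected. Of these, 28 fell (56%, against 43.7% of all detected genes), 12 rose (24%, against 28.1%) and 10 had overlapping bounds, and the median log2 ratio was -0.16. Rescaling by the median ratio gave 23 lower (46%, against 35.7%) and 15 higher (30%, against 34.8%). With a pseudocount of 1, the single change past 2-fold was that of SOSTDC1, a secreted inhibitor of Wnt and BMP signalling, from 1.89 to 0.342 FPKM, a log2 ratio of -1.10. With a pseudocount of 0.1, 4 of the 50 were more than 2-fold lower (SOSTDC1, APC2, NKD1 and PYGO1) and 3 higher (WIF1, TCF7 and T), which is 8% and 6%, against 10.1% and 9.90% of all genes.

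Genes that make and export Wnt ligands were lower. In their list, which also holds the glypicans and NOTUM, 4 of 5 fell (80%, against 43.7% of all detected genes). Without regard to bounds, all 5 log2 ratios were below 0, against 58.3% of all detected genes. After rescaling by the median ratio 4 were, against 8683 of all 17326 detected genes. Falls by separate bounds are not given for this list after rescaling. WLS, the carrier that takes Wnt ligands to the cell surface, fell from 85.1 to 67.4 FPKM, and PORCN, the enzyme that acylates them, from 3.30 to 2.10 FPKM. The most abundant gene of the list was the glypican GPC3, at 372 and 361 FPKM. It is counted as a fall, but its log2 ratio of -0.05 lay above the median of -0.09 over all genes. Rescaling by the median ratio brought the log2 ratio of GPC3 above 0. Of 6 co-receptors and other Wnt-binding receptors, 4 fell and 1 rose (66.7% and 16.7%, against 43.7% and 28.1% of all detected genes). PTK7, a receptor of the planar cell polarity branch, rose from 49.5 to 68.0 FPKM and was the most abundant, ROR2, a receptor for WNT5A, fell from 11.4 to 6.68 FPKM, and the bounds of LRP6 overlapped at 21.4 and 21.2 FPKM.

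Among the 10 genes of the destruction complex and the Dishevelled family, 7 fell and 1 rose. These are 70% and 10%, against 43.7% and 28.1% of all detected genes. CSNK1A1, the casein kinase that primes beta-catenin, was the most abundant and fell from 76.6 to 52.0 FPKM. APC fell from 4.94 to 2.61 FPKM, and GSK3B from 17.5 to 11.5 FPKM, whereas GSK3A rose from 29.1 to 34.3 FPKM. Beta-catenin itself (CTNNB1) fell from 165 to 118 FPKM, a log2 ratio of -0.47. Of the 10 genes in its list, 5 fell and 3 rose (50% and 30%, against the same 43.7% and 28.1%). The rises were those of TCF7 (4.62 to 9.38 FPKM), TCF7L1 (31.8 to 39.5 FPKM) and PYGO2 (17.8 to 20.7 FPKM).

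Commonly used transcriptional targets did not share a direction, with 4 of 9 lower and 5 of 9 higher. These are 44.4% and 55.6%, against 43.7% and 28.1% of all detected genes. AXIN2 fell from 31.2 to 24.1 FPKM, NKD1, a feedback inhibitor, from 15.4 to 7.29 FPKM, and CCND1, the most abundant of the list, from 92.3 to 81.9 FPKM. SP5 rose from 43.97 FPKM (40.3 to 47.6) to 53.0 FPKM (48.3 to 57.7), and CDX2, a gut transcription factor, from 14.1 to 20.9 FPKM. Of the 10 other secreted or surface inhibitors at this level, 4 fell and 2 rose (40% and 20%, against the same 43.7% and 28.1%). FRZB, a further secreted Frizzled-related protein, was the most abundant and fell from 51.5 to 46.6 FPKM. The rises were those of TMEM88 (10.1 to 15.4 FPKM) and WIF1, which binds Wnt ligands (0.325 to 1.48 FPKM). The bounds of RNF43 (6.88 and 5.05 FPKM) and ZNRF3 (13.9 and 13.3 FPKM), the ligases that R-spondins counter, overlapped.

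**Figure D4:**
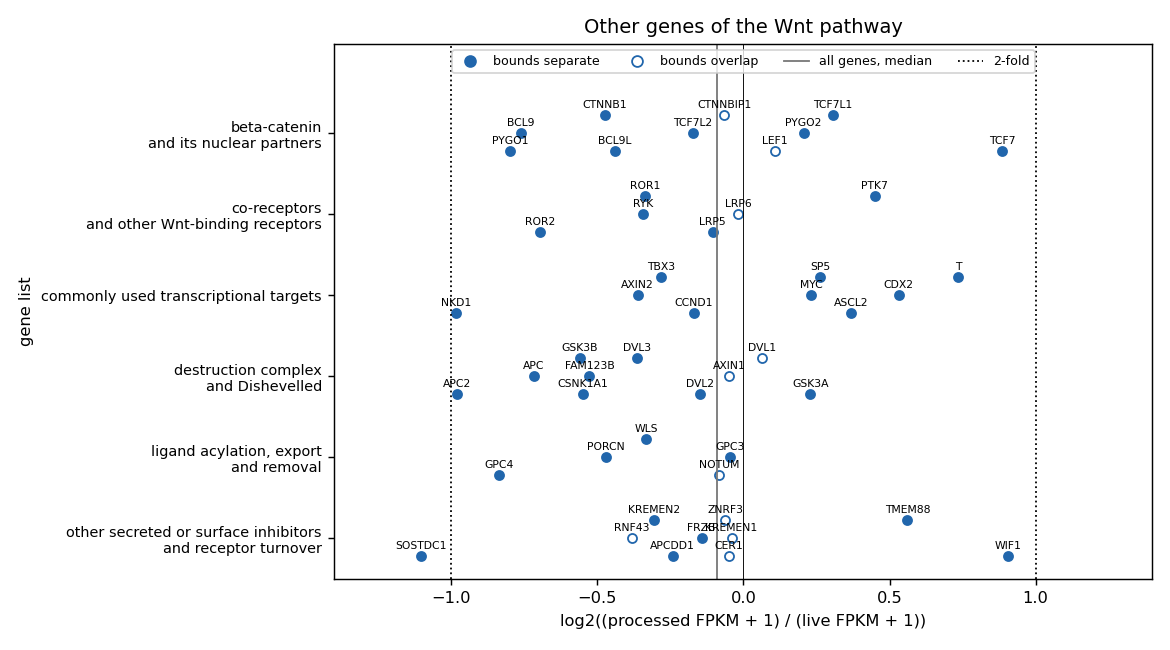
Log2 ratio of processed to live FPKM (pseudocount of 1) for the 50 other pathway genes that were detected, by list, with filled points where the authors' bounds are separate and open points where they overlap; vertical position within a list is only for legibility. SOSTDC1 alone lies beyond a dotted 2-fold line.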

How the data were processed

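Poly-A purified RNA of 1 live and 1 processed Stage 6 sample was sequenced as paired reads of 80 nt. The authors aligned reads to GRCh37/hg19 with STAR 2.2.0c, guided by GENCODE version 14, and deposited FPKM values with bounds. The methods name Cuffdiff and the processing notes Cufflinks, both as version 2.0.2. Tables were joined by Ensembl identifier in Python 3.11.15 (pandas 2.3.3, numpy 2.4.6), and rank correlations came from scipy 1.17.1. Log2 ratios used a pseudocount of 1, which understates the change of low genes. Genes were counted where FPKM was at least 1 in at least 1 library, as more than 2-fold changed or as having separate bounds. Every Wnt gene at this level is named, as are, of the pathway lists, the most abundant gene and those past 2-fold, and overlapping genes at this level. Further list genes and markers were named as examples after their values were seen. A list symbol with several rows was taken at its highest live value. Start positions are 1-based. Length and gene type came from GENCODE release 44 on GRCh37, which holds 94.5% of the gene identifiers and all 43 Wnt genes. The genes and lists were chosen with earlier results of these data known. The calculations were tested on simulated data. With 1 library per condition, no test with replicate error was possible. Alternatives covered the pseudocount, the FPKM filter, status and 2 rescalings. Microarray, qRT-PCR and sorted-cell data were not analysed here.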

Additional observations from a re-analysis of the deposited data

How the results depend on the processing

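The direction of the 36 log2 ratios held under both other pseudocounts (0.1 and 0.01), and under both rescalings apart from WNT11. The median log2 ratio of the Wnt genes lay between -0.22 and -0.10 over all alternatives, and genes lower with separate bounds numbered from 21 of 36 (division by the median ratio, 35.7% of all genes) to 29 of 43 (no filter, 23.1% of all genes). Genes more than 2-fold changed depended on low values. With pseudocounts of 0.1 and 0.01, 2 were higher and 3 lower, whereas with an FPKM of at least 1 required in both libraries, or without WNT10A (chosen after seeing the data), 0 were lower. Division by the median ratio gave 7 genes higher with separate bounds in place of 4, and moved the summed ratio of the FZD genes from 0.850 to 0.911 and that of the SFRP genes from 0.990 to 1.06. Single-gene log2 ratios moved beyond their bounds in 23 cases and stayed within them in 121, the former including RSPO2 (0.58 to 1.05 with a pseudocount of 0.1), WNT9A (-0.59 to -1.21) and FZD2 (-0.16 to -0.06 on division by the median ratio). The number of fragments behind each value is unknown here. No paired analysis was possible because each condition has 1 library, and for the same reason no library could be left out.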
